A study of Homo sapiens with 24 samples.

Results

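Chemokine transcripts were followed in 2 B-lymphoblastoid cell lines, GM10855 and GM10861, given calcitriol, estrogen, both or neither. The 9 genes described are the chemokine ligands CCL22, CCL17, CCL5, CCL20, CCL25, CXCL9, CXCL10, CXCL11 and CXCL16. They are 9 of 18417 genes with a probe set of their own in the table, and were taken by gene symbol. Each had exactly 1 such probe set. The members and the gene lists below were chosen with earlier results of these data known. Counts set beside the share of all probe sets are therefore descriptions only. Tests covered the 21214 of 33297 probe sets that carried at least 1 gene symbol. A probe set is called where limma, a linear model that shares information on the spread between genes, gave an adjusted p under 0.05.

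Both lines are B cells immortalised with Epstein-Barr virus from the HapMap collection, so every group compared here carries the virus. Expression was measured on Affymetrix whole-transcript arrays from total RNA, with 3 arrays in each of 8 groups. In each line the groups were untreated cells collected at 0 h, and cells collected after 36 h with calcitriol, the hormone made from vitamin D, with estrogen, or with the 2 agents together. Untreated cells at 36 h are not among the groups, so in a comparison with untreated cells the agent and the 36 h of culture cannot be told apart; comparisons among the treated groups are matched for time. The sources used here give no dose, vehicle or estrogen compound. They also leave unsaid whether arrays within a group are separate cultures, so every p-value reflects only array-to-array spread, possibly technical. Each line is a single transformed culture, and a difference between them describes these 2 lines.

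Chemokines are small secreted proteins that direct the movement of leukocytes through receptors on the target cell. CCL22 and CCL17 attract T helper 2 cells and regulatory T cells through CCR4, and Epstein-Barr virus is known to raise both in B cells through its membrane protein LMP1 and NF-kB. CXCL9, CXCL10 and CXCL11 are induced by interferon gamma and attract activated T cells through CXCR3.

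The bases just upstream of 4 of the genes are shown because the results turn on these members: CCL22 and CCL25 were called after treatment, and CXCL10 and CXCL9 separated the lines. Each sequence is the 250 bases before the annotated gene start on the gene's strand, from RefSeq, build GRCh38.p14, and 6 of the 9 members had such a window. Capitals mark matches to motifs of transcription factors that act on chemokine genes, searched on both strands.

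The CCL22 window, chr16:57358533-57358782 on the plus strand, holds 2 overlapping matches to the NF-kB consensus, together covering the bases 186 to 176 before the start.
CCL22: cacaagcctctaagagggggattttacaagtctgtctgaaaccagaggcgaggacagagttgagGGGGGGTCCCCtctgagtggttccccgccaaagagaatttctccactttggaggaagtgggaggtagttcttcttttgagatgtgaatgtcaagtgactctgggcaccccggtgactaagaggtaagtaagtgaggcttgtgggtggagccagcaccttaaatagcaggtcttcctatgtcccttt
The CCL25 window, chr19:8052510-8052759 on the plus strand, holds no match to any motif named here.
CCL25: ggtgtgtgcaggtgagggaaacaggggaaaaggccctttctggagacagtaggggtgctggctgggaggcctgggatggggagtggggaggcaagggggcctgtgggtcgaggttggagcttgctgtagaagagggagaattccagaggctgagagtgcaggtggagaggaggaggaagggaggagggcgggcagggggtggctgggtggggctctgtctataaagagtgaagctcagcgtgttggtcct
The CXCL10 window, chr4:76023498-76023747 on the minus strand, holds an interferon regulatory factor (IRF) motif at 221 to 212 and NF-kB matches at 177 to 168 and 122 to 113 bases before the start.
CXCL10: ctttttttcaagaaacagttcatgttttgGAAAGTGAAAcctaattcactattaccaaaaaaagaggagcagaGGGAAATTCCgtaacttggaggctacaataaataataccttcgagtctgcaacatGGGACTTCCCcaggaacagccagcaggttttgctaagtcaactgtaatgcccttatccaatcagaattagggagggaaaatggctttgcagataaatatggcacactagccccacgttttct
The CXCL9 window, chr4:76007510-76007759 on the minus strand, holds an IRF motif at 171 to 162 bases before the start.
CXCL9: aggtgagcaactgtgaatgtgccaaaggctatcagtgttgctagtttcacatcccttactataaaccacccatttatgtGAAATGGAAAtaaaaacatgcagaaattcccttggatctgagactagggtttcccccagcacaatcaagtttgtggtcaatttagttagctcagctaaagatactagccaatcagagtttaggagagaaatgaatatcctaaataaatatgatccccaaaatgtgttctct

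The motifs were the NF-kB consensus, the IRF motif (GAAA, any 2 bases, GAAA), the STAT6 motif (TTC, any 4 bases, GAA) and the DR3 vitamin D response element. Of 35114 windows of the same length, 9.96% held the NF-kB consensus, 3.02% the IRF motif, 5.38% the STAT6 motif and 0.202% the DR3 element. Among the 2 windows not shown, that of CCL20 had 1 NF-kB match and that of CXCL11 had 1 NF-kB match. None of the 6 windows held the STAT6 or DR3 motif. These matches describe letters in a window and nothing about binding.

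Values below are log2 signals made with RMA, a procedure that equalises the distributions of the arrays, so a shift shared by most genes is removed. The median of the tested probe sets lay between 5.77 and 5.84 on the 24 arrays, and arrays of a group correlated at 0.985 to 0.993. No detection call came with the values. CCL20, CXCL9, CXCL11 and CXCL16 lay below the lower quartile of the array on 24 of 24 arrays, and their small changes are therefore uncertain, since RMA compresses changes of dim probe sets. The known calcitriol targets CAMP, an antimicrobial peptide, and CYP24A1, the enzyme that degrades calcitriol, rose after calcitriol by 2.46 (SE 0.102) and 2.06 (SE 0.115) on the log2 scale. B cell markers were bright, with mean signals up to 10.8, although BANK1 lay at 2.95. The mean over 5 T cell markers lay between 4.33 and 4.55 on the arrays. RNA was taken from whole cultures, so a change in the number of cells making a transcript and a change in RNA per cell cannot be told apart.

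CCL22 was the member that rose after calcitriol. It rose with calcitriol alone, with both agents against untreated cells, and with calcitriol added to estrogen, by 1.35-fold to 1.51-fold averaged over the lines. In untreated GM10855 cells the 3 arrays read 8.38, 7.92 and 7.74, and with calcitriol they read 8.57, 8.46 and 8.51. With estrogen alone GM10855 read 8.36, 8.12 and 7.86, and with both agents 8.65, 8.60 and 8.35. The groups with calcitriol were higher than those without it, which spread more widely. The lowest array with calcitriol, at 8.35, and the highest without it, at 8.38, overlapped.

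In GM10861 the untreated arrays read 8.49, 8.35 and 8.23 for CCL22, and the calcitriol arrays 8.91, 8.61 and 8.68. The estrogen arrays of GM10861 read 8.52, 8.37 and 8.53, and those with both agents 9.12, 9.06 and 8.93. All 6 arrays with calcitriol, from 8.61 to 9.12, lay above all 6 without it, from 8.23 to 8.53. CCL22 was the single member with that separation upward in GM10861, where 0.674% of all tested probe sets had it; no member had it downward in GM10861, against 0.537%, or upward in GM10855, against 0.966%.

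**Figure D1:**
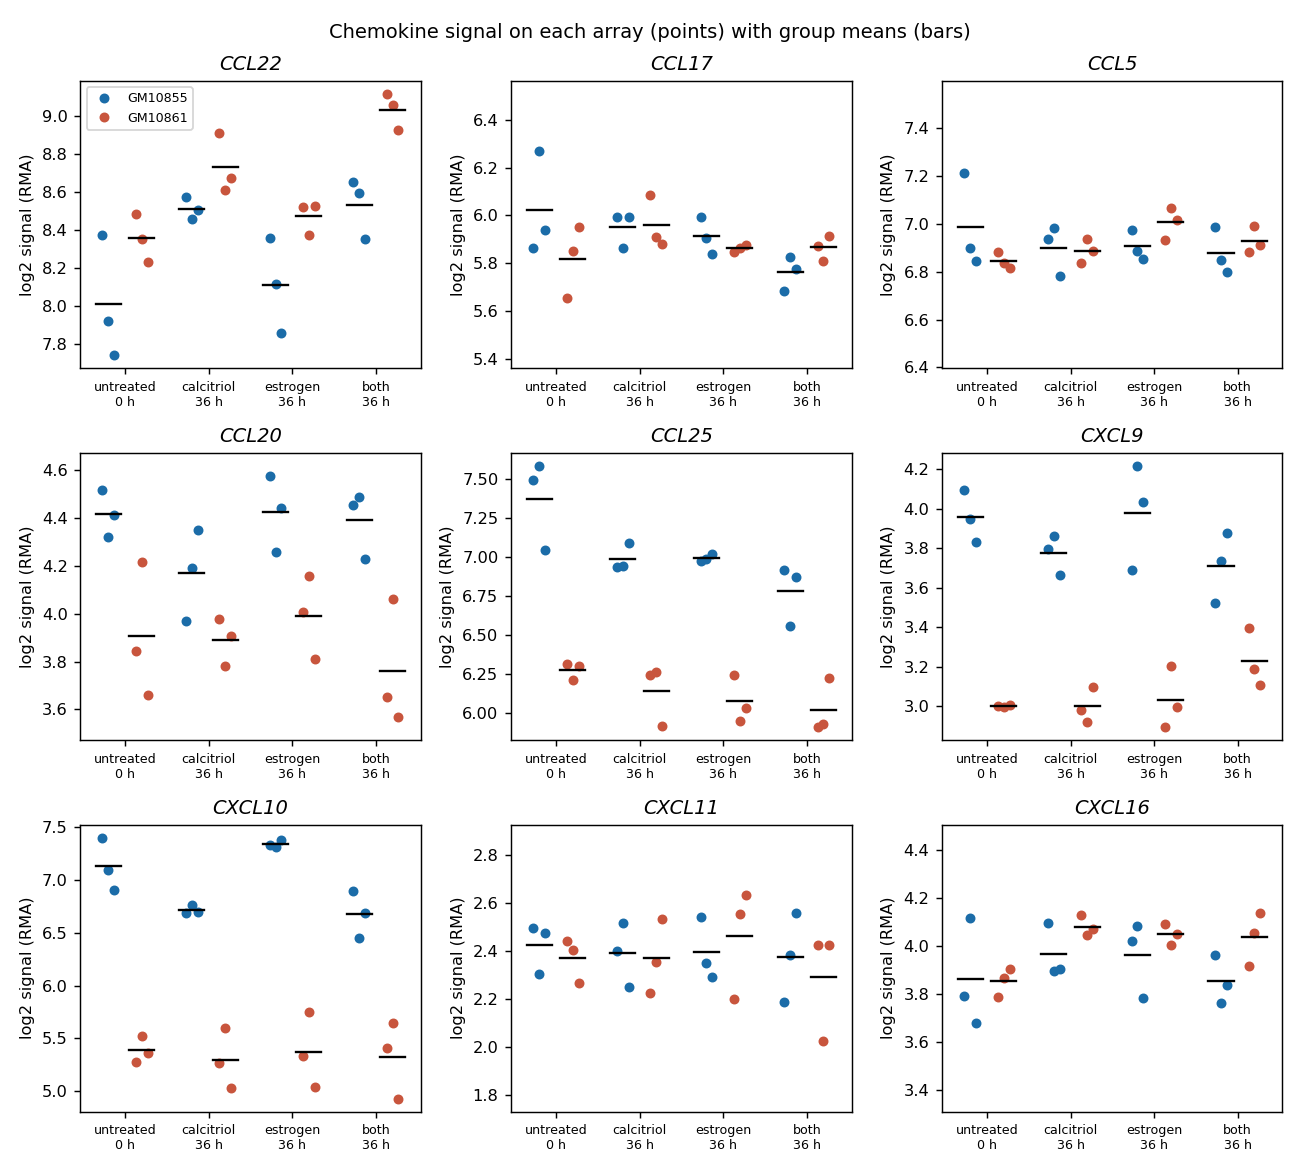
Log2 RMA signal of each chemokine on every array (points), by agent and time on the x axis and by line in colour, with group means as bars; each panel has its own y axis. CCL22 sits higher in the groups with calcitriol, and CCL25, CXCL9 and CXCL10 sit lower in all 12 GM10861 arrays than in all 12 GM10855 arrays.

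Averaged over the lines, CCL22 changed by 0.44 on the log2 scale (SE 0.0950, limma, adjusted p = 0.0239, n = 6 arrays a side) with calcitriol against untreated. With both agents against untreated it changed by 0.60 (adjusted p = 8.46e-04). With calcitriol added to estrogen, a comparison of groups all at 36 h, it changed by 0.49 (adjusted p = 0.00896). The comparison of calcitriol alone with untreated and that of calcitriol added to estrogen share no arrays, whereas both comparisons with untreated cells share the untreated arrays.

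The call for calcitriol alone depended on which arrays were in the fit, being lost in 7 of 12 fits that left out 1 array. The adjusted p was 0.0878 and 0.0979 without GM10855 untreated array 2 and 3, 0.0739 and 0.0574 without GM10855 calcitriol array 1 and 3, 0.0593 and 0.0950 without GM10861 untreated array 2 and 3, and 0.0994 without GM10861 calcitriol array 1. The change stayed between 0.37 and 0.53 in these 12 fits. It was also lost with all probe sets tested (adjusted p = 0.0717) and with only the arrays compared in the fit (adjusted p = 0.0696). With both agents against untreated, and with calcitriol added to estrogen, CCL22 was called in 12 of 12 such fits, with adjusted p up to 0.00456 and 0.0384.

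**Figure D2:**
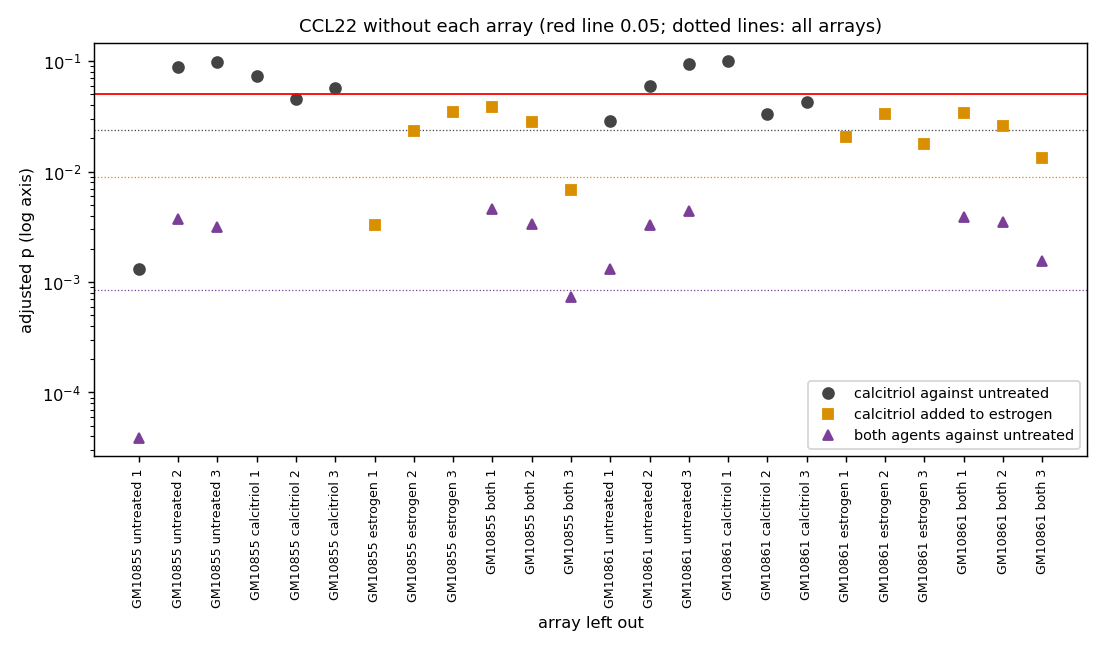
Adjusted p of the CCL22 change (log y axis) when the array named on the x axis is left out, for 3 comparisons; the red line is 0.05 and dotted lines are the values with all arrays. Points for calcitriol against untreated cross the line in 7 of 12 fits, with values up to 0.0994, and points for the other comparisons stay below it.

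Estrogen did not move CCL22 past the threshold. The change was 0.11 (95% interval -0.09 to 0.30, adjusted p = 0.978) against untreated and 0.16 (interval -0.04 to 0.36, adjusted p = 0.675) on top of calcitriol. Calcitriol against estrogen gave 0.33 (adjusted p = 0.189, unadjusted p = 0.00212). The interaction of the agents was 0.05 with an interval of -0.23 to 0.33.

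Taken by line, CCL22 was called with both agents against untreated in GM10855 (0.52, adjusted p = 0.0410) and in GM10861 (0.68, adjusted p = 0.0292). These were the only line-specific calls for this gene. Calcitriol alone gave 0.50 in GM10855 (adjusted p = 0.136) and 0.38 in GM10861 (adjusted p = 0.692), and calcitriol added to estrogen gave 0.42 (adjusted p = 0.207) and 0.56 (adjusted p = 0.176). The difference in response between the lines was not called in any of 6 comparisons and lay between -0.14 and 0.28 with an SE of 0.190.

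Some B cell markers were called in the comparisons in which CCL22 was called. After calcitriol alone 3 of 8 measured markers rose, beside 0.679% of all tested probe sets called, namely CD79A, a chain of the B cell receptor complex (0.85), CR2, the complement and Epstein-Barr virus receptor (0.41), and PAX5, the B lineage factor (0.26); the other 5 did not pass. The same 3 rose with both agents against untreated and with calcitriol added to estrogen. With calcitriol against estrogen, where CCL22 was not called, 2 of the 8 were higher, beside 0.570% of all tested probe sets called. The mean over the 8 markers ranged over arrays from 7.14 to 7.36 in untreated and 7.52 to 7.59 in calcitriol-treated GM10855, and from 7.50 to 7.53 and from 7.60 to 7.67 in GM10861. Of the 7 markers of activated, virus-transformed B cells CD80, a costimulatory ligand, rose with both agents against untreated (0.30, adjusted p = 0.00879), and no other was called in an agent comparison. The part of these markers in the CCL22 result was not tested. None of the measured markers of T cells (5), NK cells (4), monocytes (4), dendritic cells (5), fibroblasts (3) or epithelial cells (2) was called by limma in an agent comparison; at an unadjusted p under 0.05 there was 1 fibroblast marker with both agents, 1 monocyte marker with calcitriol added to estrogen and 1 dendritic cell marker with calcitriol against estrogen. The genes most like CCL22 over the 24 arrays, after each line's mean was taken off, were IFI30, a lysosomal thiol reductase (r = 0.876), GLUL, glutamine synthetase (r = 0.855), and LAMP3, a lysosomal membrane protein of mature dendritic cells (r = 0.852). These correlations share arrays, treatments and normalisation and are descriptions only. GLUL rose by 0.36 (adjusted p = 2.00e-04) and LAMP3 by 0.26 (adjusted p = 0.0133) after calcitriol, while IFI30 gave 0.18 (adjusted p = 0.148).

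CCL22 lies on chromosome 16 beside the chemokine CX3CL1, with CCL17 close by. CX3CL1 gave 0.03 after calcitriol (adjusted p = 0.994), and the neighbour on the other side, PLLP, a myelin membrane protein, gave 0.06 (adjusted p = 0.979). Neither was called in the other agent comparisons.

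CCL17, the other CCR4 ligand, was not called in any agent comparison. Its 24 values ran from 5.66 to 6.27, and its change was 0.03 (95% interval -0.11 to 0.17) with calcitriol, -0.11 with both agents against untreated and -0.14 with estrogen added to calcitriol (unadjusted p = 0.0484, adjusted p = 0.594). In GM10855 the means were 6.02 untreated, 5.95 with calcitriol, 5.91 with estrogen and 5.76 with both; in GM10861 they were 5.82, 5.96, 5.86 and 5.87. The lines did not differ detectably in this gene, with a difference of -0.04 (interval -0.13 to 0.06).

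CCL25 attracts developing T cells and gut-homing lymphocytes through CCR9. It was the other member called after treatment, and it fell with both agents against untreated by 0.42 on the log2 scale. In GM10855 the untreated arrays read 7.50, 7.59 and 7.05, those with calcitriol 6.93, 6.94 and 7.09, those with estrogen 6.97, 6.99 and 7.02, and those with both agents 6.91, 6.56 and 6.87. The 3 arrays with both agents all lay below the 3 untreated ones, as 5.97% of tested probe sets did. Of the untreated arrays, 1 stood lower than the others and below a calcitriol array.

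In GM10861 the untreated arrays read 6.32, 6.21 and 6.30 for CCL25, those with calcitriol 6.24, 6.26 and 5.91, those with estrogen 6.24, 5.94 and 6.03, and those with both agents 5.91, 5.93 and 6.22. Here the untreated and the both-agent arrays overlapped. The change with both agents was -0.42 averaged over the lines (SE 0.0902, adjusted p = 0.0155), -0.59 in GM10855 (adjusted p = 0.0144) and -0.25 in GM10861 (adjusted p = 0.762), and the difference between the lines in this response was 0.34 with an interval of -0.03 to 0.71, not called.

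Each agent alone gave a change of the same sign in CCL25 that missed the threshold, -0.26 with calcitriol (unadjusted p = 0.00799, adjusted p = 0.401) and -0.29 with estrogen (unadjusted p = 0.00367, adjusted p = 0.786). All 3 comparisons share the untreated arrays, which were taken at another time. Among cells all at 36 h, CCL25 gave -0.13 with calcitriol added to estrogen (interval -0.32 to 0.05), -0.16 with estrogen added to calcitriol (interval -0.35 to 0.02) and 0.03 with calcitriol against estrogen (interval -0.16 to 0.22), none of them called.

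The CCL25 call was lost in 3 of 12 fits without 1 array: adjusted p was 0.0558 without GM10855 untreated array 2, 0.0514 without GM10861 array 1 with both agents and 0.0519 without GM10861 array 2 with both agents. It was also lost with only the arrays compared in the fit (adjusted p = 0.0627). Its neighbours on chromosome 19, ELAVL1, an RNA-binding protein, and FBN3, a fibrillin, gave 0.06 (adjusted p = 0.772) and -0.07 (adjusted p = 0.785) with both agents. The genes most like CCL25 over the 24 arrays after each line's mean was taken off were E2F1, a cell cycle transcription factor (r = 0.763), ENY2, a subunit of a chromatin complex (r = 0.724), and RAB25, a small GTPase (r = 0.722). For ENY2 the correlation was 0.876 within GM10855 and 0.376 within GM10861.

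CXCL10 was not called in any agent comparison over both lines. In GM10855 the untreated arrays read 7.40, 7.10 and 6.91, those with calcitriol 6.68, 6.77 and 6.70, those with estrogen 7.34, 7.31 and 7.38, and those with both agents 6.90, 6.45 and 6.69. All 6 arrays with calcitriol lay below all 6 without it, narrowly, with a highest value of 6.90 against a lowest of 6.91. CXCL10 was the single member so separated in GM10855, a separation that 0.141% of all tested probe sets had.

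In GM10861, CXCL10 read 5.28, 5.52 and 5.36 untreated, 5.27, 5.60 and 5.03 with calcitriol, 5.33, 5.75 and 5.04 with estrogen, and 5.41, 5.64 and 4.93 with both agents. These groups overlapped throughout. The change with calcitriol added to estrogen was -0.66 in GM10855 (SE 0.175, unadjusted p = 9.60e-04, adjusted p = 0.0920) and -0.05 in GM10861, and the difference between them was 0.62 (interval 0.11 to 1.13, unadjusted p = 0.0202, adjusted p = 0.637). Averaged over the lines, the change was -0.36 (adjusted p = 0.361) with calcitriol added to estrogen, -0.35 (adjusted p = 0.370) with calcitriol against estrogen, -0.25 (adjusted p = 0.770) with calcitriol against untreated and -0.26 (adjusted p = 0.455) with both agents against untreated.

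CXCL9, also a CXCR3 ligand, was dim. Its agent changes averaged over the lines lay between -0.12 and 0.08. In GM10855 it gave -0.27 with calcitriol added to estrogen (unadjusted p = 0.0332, adjusted p = 0.441), and in GM10861 0.20 (unadjusted p = 0.109), with a difference between the lines of 0.47 (unadjusted p = 0.0106, adjusted p = 0.566). CXCL11, the remaining CXCR3 ligand, was the dimmest probe set of the 9, with a mean of 2.39, and its agent changes lay between -0.10 and 0.03.

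CCL5, which attracts T cells and monocytes, gave changes between -0.06 and 0.04 in the 6 agent comparisons, with an SE of 0.0611. CCL20, the CCR6 ligand that draws dendritic cells and T helper 17 cells, gave changes between -0.18 and 0.05 with an SE of 0.0987. CXCL16, a membrane-bound CXCR6 ligand that ADAM10 can shed, gave 0.17 with calcitriol (unadjusted p = 0.0293, adjusted p = 0.663) and 0.15 with estrogen (unadjusted p = 0.0485, adjusted p = 0.953) against untreated, and 0.09 with both agents (adjusted p = 0.727). None of these genes was called in an agent comparison.

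Over the 9 members, limma called 1 higher and none lower with calcitriol against untreated, where 0.679% of all tested probe sets were called, and 1 higher and 1 lower with both agents against untreated, where 1.15% were. It called 1 higher with calcitriol added to estrogen, where 0.754% were called. No member was called with calcitriol against estrogen, where 0.570% of probe sets were, and at an unadjusted p under 0.05 there were 2. With estrogen against untreated and with estrogen added to calcitriol 0 members and 0% of probe sets were called, and 2 and 1 members had an unadjusted p under 0.05. The median change of the members was -0.02 with calcitriol, -0.06 with both agents and -0.07 with calcitriol added to estrogen, beside -0.0011, -0.0012 and -0.010 over all tested probe sets. The interaction of the agents called 0 members and 0% of probe sets, with 1 member, CXCL16 (-0.23, unadjusted p = 0.0338), under 0.05 before adjustment.

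**Figure D3:**
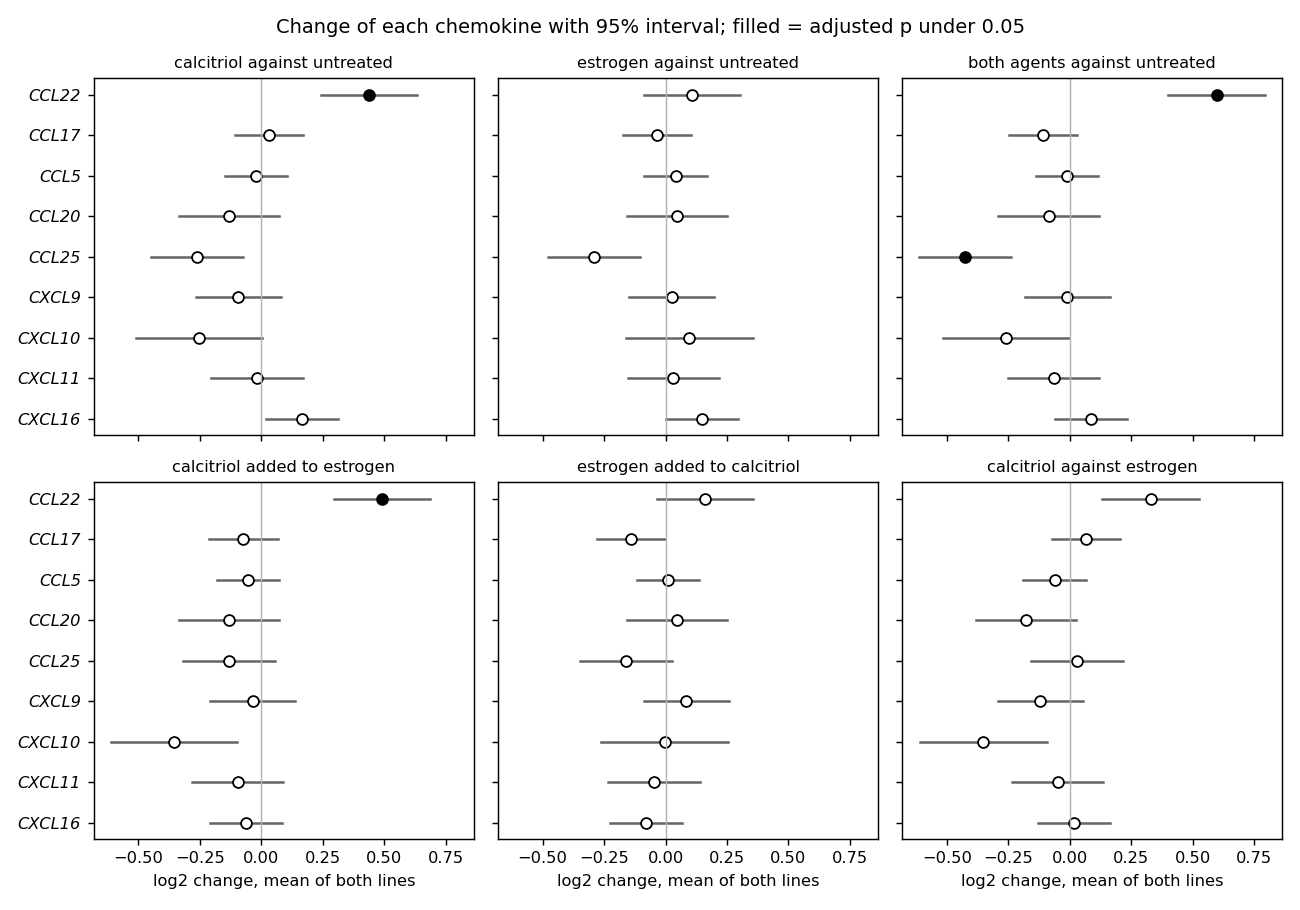
Log2 change of each chemokine averaged over both lines (points) with its 95% interval (bars) in the 6 agent comparisons; filled points have an adjusted p under 0.05. CCL22 is filled in 3 panels, from 0.44 to 0.60, and CCL25 in 1 panel, at -0.42.

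By line, CCL22 and CCL25 were the members called in GM10855 with both agents against untreated, where 2.33% of probe sets were called, and CCL22 was the member called in GM10861, where 0.184% were. No member was called in GM10855 with calcitriol alone (0.509% of probe sets; 3 members at an unadjusted p under 0.05) or with calcitriol added to estrogen (0.632%; 3 members). The same held in GM10861 with calcitriol alone (0.104%; 2 members) and with calcitriol added to estrogen (0.127%; 1 member). The difference in response between the lines was called for 0 of 9 members in each of 6 comparisons. Those comparisons called 0.00943% of probe sets for calcitriol, 0% for estrogen and 0.0141% for both agents against untreated, 0.00471% for calcitriol added to estrogen, 0% for estrogen added to calcitriol and 0.0236% for calcitriol against estrogen. Before adjustment CCL17 and CXCL9 were under 0.05 for both agents against untreated, CXCL9 and CXCL10 for calcitriol added to estrogen, and CXCL10 for calcitriol against estrogen.

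The lines differed in 5 of the 9 members: CCL22 was higher in GM10861, and CCL20, CCL25, CXCL9 and CXCL10 were lower. This stands beside 41.8% of all tested probe sets called between the lines, so 5 of 9 is near the background. CXCL10 read 6.45 to 7.40 (median 6.90) on the GM10855 arrays and 4.93 to 5.75 (median 5.35) on the GM10861 arrays, with no overlap. It differed by -1.62 on the log2 scale (SE 0.0877, adjusted p = 1.79e-13), 3.08-fold lower in GM10861.

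CCL25 arrays of GM10855 read 6.56 to 7.59 and those of GM10861 read 5.91 to 6.32, a difference of -0.91 (SE 0.0638, adjusted p = 2.21e-11). CXCL9, which lay below the lower quartile of the array on 24 of 24 arrays, ran from 3.52 to 4.22 and from 2.89 to 3.40. Its difference of -0.79 (SE 0.0591, limma, adjusted p = 7.33e-11) is therefore uncertain in size. These 3 chemokines were the members for which all 12 GM10861 arrays lay below all 12 GM10855 arrays, as 3.25% of probe sets did; none had all 12 above, as 7.19% did.

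CCL20 differed by -0.46 (SE 0.0698, adjusted p = 6.90e-06) and CCL22 by 0.36 (SE 0.0672, adjusted p = 1.24e-04), both with overlapping arrays. CCL20 also lay below the lower quartile on every array, so the size of its difference is uncertain. CCL5 gave -0.0007, with an interval of -0.09 to 0.09, and CXCL11 by -0.02 (interval -0.15 to 0.11). CXCL16 gave 0.09 (adjusted p = 0.140), and it was called without GM10855 untreated array 2 (0.13, adjusted p = 0.0267) and after cyclic loess (0.13, adjusted p = 0.0269).

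Within single agent groups the differences kept their sign for the 5 called members. CXCL10 differed by -1.75 in untreated cells, -1.42 with calcitriol, -1.97 with estrogen and -1.35 with both agents, each called. CXCL9 differed by -0.96, -0.77, -0.95 and -0.48 in the same order, each called, and CCL25 by -1.10, -0.85, -0.92 and -0.76, each called. CCL20 was called in 3 of the groups and missed it with calcitriol (-0.28, adjusted p = 0.181), and CCL22 was called with both agents only (0.50, adjusted p = 0.00873). The share of probe sets called between the lines was 24.3% in untreated cells, 19.0% with calcitriol, 19.3% with estrogen and 19.8% with both agents.

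**Figure D4:**
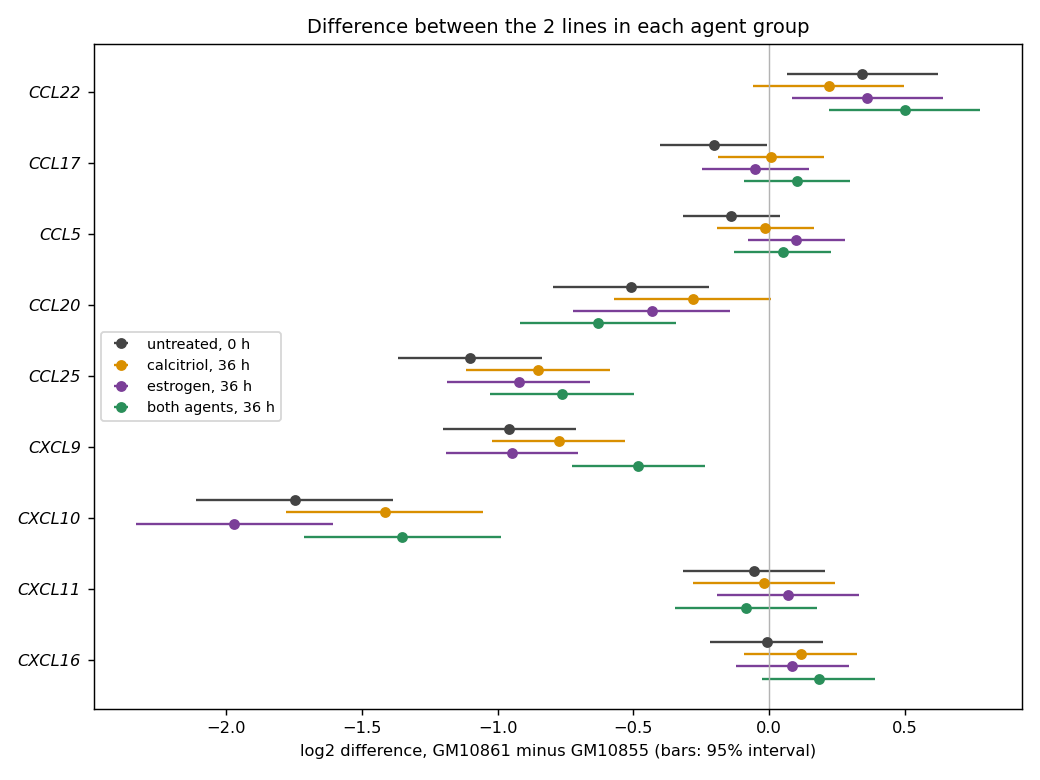
Log2 difference between the lines, GM10861 minus GM10855, for each chemokine in each agent group (points, coloured by agent) with the 95% interval (bars). CXCL10, CXCL9 and CCL25 lie left of 0 in all 4 groups, and the CXCL10 values run from -1.97 to -1.35.

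Genes of the interferon gamma pathway, which induces the CXCR3 ligands, were mostly lower in GM10861: 10 of 14 measured were lower and 1 was higher, beside 41.8% of all tested probe sets called in either direction. By direction, 3895 of the 21214 tested probe sets were called lower in GM10861 and 4970 higher. The median difference of the 14 genes was -0.27, beside -0.02 over all probe sets. IFNG, the cytokine itself, differed by -1.94 (4.11 against 6.05), GBP2, a guanylate-binding protein, by -1.37 (its other probe set gave -1.01), IRF1, a factor that IFNG induces, by -0.53, and JAK2, a kinase of its receptor, by -0.54. The IFNG mean of 4.11 in GM10861 lies below the lower quartile of the arrays, 4.59 to 4.73, so the size of its difference is uncertain. The receptor chains IFNGR1 and IFNGR2 gave -0.05 and 0.05 and were not called. CXCL11, the dimmest CXCR3 ligand, gave -0.02 and was not called. The part of these pathway genes in the difference of CXCL9 and CXCL10 was not tested. With the agents, 1 gene of this list passed, IRF8, a factor of B cells and myeloid cells. It rose by 0.29 with calcitriol against untreated (adjusted p = 0.0143), by 0.27 with both agents (adjusted p = 0.0196), by 0.26 with calcitriol added to estrogen (adjusted p = 0.0343) and by 0.28 with calcitriol against estrogen (adjusted p = 0.0213).

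Cell type markers also differed between the lines, again beside 41.8% of all tested probe sets. Of 7 markers of activated, virus-transformed B cells 5 were lower in GM10861 and 1 was higher; CD40 was lower by 0.52, the low-affinity IgE receptor FCER2 by 0.25 and the costimulatory ligand CD70 by 0.31 on the log2 scale. Of 8 B cell markers 5 were higher and 1 lower. Of 4 NK cell markers 2 were lower, NKG7 (-0.43) and NCAM1 (-0.19), and the other 2 did not pass; the mean over the 4 ranged from 4.35 to 4.65 over the GM10855 arrays and from 4.25 to 4.53 over the GM10861 arrays. Of 5 dendritic cell markers 1 was higher and 2 lower, of 4 monocyte markers 1 was lower, of 2 epithelial markers 1 was higher, and of 5 T cell and 3 fibroblast markers none was called by limma or had an unadjusted p under 0.05. The part of these markers' cells in the difference of CXCL9 and CXCL10 was not tested.

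**Figure D5:**
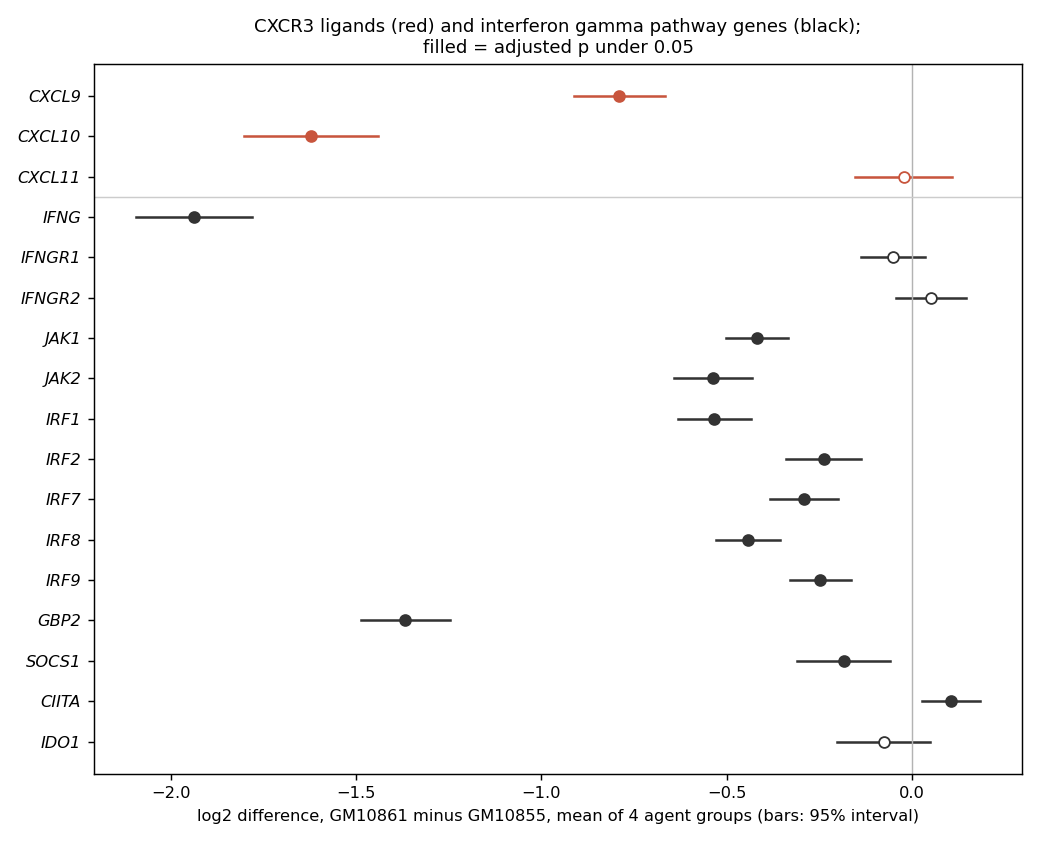
Log2 difference between the lines averaged over the 4 agent groups for the CXCR3 ligands (red) and 14 interferon gamma pathway genes (black), with 95% intervals; filled points have an adjusted p under 0.05. CXCL9 and CXCL10 lie at -0.79 and -1.62 and IFNG at -1.94, while CXCL11 lies at -0.02.

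Of the NF-kB, CD40 and LMP1 pathway, 24 genes were measured. With calcitriol 1 was called higher, beside 0.679% of all tested probe sets called: LTA, the cytokine lymphotoxin alpha (0.40, adjusted p = 0.00348). LTA was also called higher with both agents against untreated (0.34, adjusted p = 0.0143), where 1.15% of probe sets were called. The other 2 probe sets of LTA gave 0.30 and 0.26 after calcitriol (adjusted p = 0.0805 and 0.126) and missed the threshold in both comparisons. No gene of the list was called lower in the agent comparisons. At an unadjusted p under 0.05 limma gave 6 of the 24 with calcitriol and 9 with both agents, each against untreated. With calcitriol added to estrogen it gave 2, and with calcitriol against estrogen 3. The first 2 of these comparisons share the untreated arrays. The share of all tested probe sets under that unadjusted level is not given here, so these counts have no background beside them. The median change was 0.07 with calcitriol and 0.09 with both agents, beside -0.0011 and -0.0012 over all tested probe sets. With calcitriol added to estrogen the median was 0.04, beside -0.010. Between the lines, where 41.8% of all tested probe sets were called, 6 were higher and 10 lower in GM10861, among them REL, an NF-kB subunit (-0.83), TNFAIP3, an inhibitor of the pathway (-0.71), CD40, the receptor for T cell help (-0.52), and LTA (-0.55). Of 11 genes of the interleukin 4 and STAT6 pathway, which can induce CCL17 and CCL22, none was called by limma in an agent comparison, with at most 2 at an unadjusted p under 0.05. Those with the smallest p after calcitriol were STAT6 (0.13, unadjusted p = 0.0119) and BCL6 (0.21, unadjusted p = 0.0479). Between the lines, beside the same 41.8%, 1 was higher, the receptor chain IL13RA1 (1.60), and 7 were lower, among them IL2RG, the shared cytokine receptor chain (-0.71).

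Of the receptors of these chemokines 10 of 12 were measured. CXCR3 was called higher with both agents against untreated (0.29, adjusted p = 0.0479), just under the threshold, where 1.15% of probe sets were called. Fits without 1 array were not made for it. With calcitriol added to estrogen, matched for time, 0 receptors were called. No receptor other than CXCR3 was called in an agent comparison. CCR4, the receptor of CCL22 and CCL17, gave 0.25 with both agents against untreated (adjusted p = 0.331). Between the lines 3 of the 10 receptors were higher in GM10861 and 3 lower, beside 41.8% of probe sets called, among them CCR6 (-0.98), the receptor of CCL20, and the scavenging receptors ACKR3 (0.78) and ACKR4 (0.79), although a dimmer probe set of ACKR4 gave 0.09. DPP4, a surface protease that trims CCL22, CCL5, CXCL9, CXCL10 and CXCL11, read 8.03 in GM10861 and 4.10 in GM10855. The difference was 3.92 (SE 0.107, limma, adjusted p = 3.39e-19), and DPP4 was not called in any agent comparison. Its GM10855 mean lies below the lower quartile of the arrays, 4.59 to 4.73, so the size of the difference is uncertain. The group SDs of DPP4 reached 0.590 in GM10855 and 0.140 in GM10861. ADAM10 differed by -0.20 between the lines.

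Averaged over the lines, other chemokine ligands did not pass in the agent comparisons: 0 of 30 measured were called by limma in any of the 6, with 1 to 5 at an unadjusted p under 0.05, and the changes lay between -0.36 and 0.28. CCL1, a CCR8 ligand, and CXCL13, a B cell attractant, had the smallest p after calcitriol, at -0.32 (unadjusted p = 0.00394) and -0.19 (unadjusted p = 0.0276). CCL1 is given by line because of its values there. In GM10855 it read 6.36 ± 0.145 untreated, 5.63 ± 0.0864 with calcitriol, 6.33 ± 0.236 with estrogen and 5.59 ± 0.128 with both agents (mean ± SD, n = 3). It fell in limma's fit by 0.73 on the log2 scale with calcitriol (adjusted p = 0.00863), by 0.76 with both agents against untreated (adjusted p = 0.00357) and by 0.74 with calcitriol added to estrogen (adjusted p = 0.00800). It was the 1 ligand of the 30 called in these 3 GM10855 comparisons, where 0.509%, 2.33% and 0.632% of probe sets were. CCL1 was also the 1 ligand called lower in GM10855 with calcitriol against estrogen, both at 36 h. There 109 of the 21214 tested probe sets were called higher and 14 lower. In GM10861 the means ran from 4.61 to 4.75, the changes in the same comparisons were 0.09, 0.13 and 0.01, and no ligand of the list was called. These GM10861 means lie near the lower quartile of the arrays, 4.59 to 4.73, so small changes of CCL1 there are uncertain. The difference in response between the lines was 0.82 (adjusted p = 0.327), 0.90 (adjusted p = 0.127) and 0.75 (adjusted p = 0.348), not called.

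Between the lines, beside 41.8% of probe sets called, 1 of the 30 other ligands was higher in GM10861, the mucosal chemokine CCL28 (1.19), and 8 were lower, among them CCL1 (-1.28), XCL1 (-0.67) and CCL3 (-0.48). XCL1 and CCL3 have near-identical copies elsewhere in the genome, so their values are uncertain.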

How the data were processed

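The deposited table gives a log2 signal for each probe set on each array. Per the submitters' processing notes, the authors used Affymetrix Expression Console (version 1.0.1) and RMA. Which arrays were normalised together, and on which build, is not stated in the sources at hand. RNA was extracted with an Exiqon kit, per the labels' protocols. Of 33297 probe sets, 19460 had 1 gene symbol, 1754 several and 12083 none; 19429 matched GRCh38.p14 by Entrez ID.

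All 24 arrays entered 1 limma fit (version 3.58.1, R 4.3.3) with 1 mean for each of 8 groups and eBayes, giving 16 residual and 6.73 prior degrees of freedom. Contrasts averaged both lines, each against itself; p-values are two-sided and were adjusted by Benjamini-Hochberg over 21214 probe sets, called under 0.05. Where a listed gene had several probe sets, the brightest on average was used. Counts of genes at an unadjusted p under 0.05 are given without the share over all probe sets and are descriptions only. The fit was tested on simulated data with every array drawn independently, so an effect shared by arrays of the same number was not covered. The labels give no replicate numbers or batches, and no 2 arrays were identical. The series text mentions ENCODE lines, which were not analysed here.

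The members and gene lists were chosen with earlier results of these data known. Named were all members, up to 4 called genes of smallest p in a list (or the 2 of smallest p after calcitriol), the 3 genes most correlated with each called member, its neighbours, CAMP and CYP24A1; IFNGR1, IFNGR2, CCR4, BANK1 and ADAM10 were added for their roles, and CCL1 by line after its values were seen. Alternatives left out probe sets with a mean under 5, tested all probe sets, centred arrays on their medians, used cyclic loess, used eBayes with trend and robust, fitted only the arrays compared, and left out each array in turn. 1 motif search is not reported here.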

Additional observations from a re-analysis of the deposited data

How the results depend on the processing

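With 3 arrays a group and no detection calls, the number of arrays and low signal limit what can be seen. With calcitriol against untreated the count of members called was 0 with all probe sets tested and 0 with only the arrays compared, and 0 to 1 without 1 array, against 1 as reported. With both agents against untreated it was 1 with only the arrays compared and 1 to 2 without 1 array, against 2. Between the lines it was 3 when probe sets with a mean under 5 were left out, against 5, because that leaves 14526 probe sets and drops 4 members. No called change turned its sign. Centring moved CXCL10 with estrogen added to calcitriol to 0.0037 and cyclic loess to 0.0086, from -0.0041, and centring moved CCL5 between the lines to 0.0065 from -0.0007; the cause was not tested. Changes that were not called and took both signs without 1 array ranged, with calcitriol against untreated, from -0.0087 to 0.0935 for CCL17, -0.0566 to 0.0354 for CCL5 and -0.0583 to 0.0186 for CXCL11. With estrogen against untreated they ranged from -0.0758 to 0.0263 for CCL17, -0.0146 to 0.124 for CCL20, -0.0335 to 0.0984 for CXCL9 and -0.0120 to 0.0963 for CXCL11. With both agents against untreated the ranges were -0.0473 to 0.0447 for CCL5, -0.0513 to 0.0373 for CXCL9 and -0.111 to 0.0021 for CXCL11, and with calcitriol added to estrogen -0.108 to 0.0239 for CXCL9. With estrogen added to calcitriol they were -0.0204 to 0.0295 for CCL5, -0.0291 to 0.0935 for CCL20, -0.0825 to 0.0957 for CXCL10 and -0.0931 to 0.0198 for CXCL11. With calcitriol against estrogen they were -0.0019 to 0.0857 for CCL25 and -0.0277 to 0.0478 for CXCL16, and between the lines -0.0184 to 0.0276 for CCL5 and -0.0464 to 0.0108 for CXCL11. No paired analysis was run, because the labels carry no replicate numbers. Array numbers here follow accession order, and whether arrays of the same number belong together is not stated. CXCL10 in GM10861 read highest on array 2 in every group, at 5.52, 5.60, 5.75 and 5.64. CCL22 read highest on array 1 in most groups. Both were picked after the values were seen. Any effect shared by such arrays stays in the spread of the fit and was not tested.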
